A study of Homo sapiens with 12 samples.

Results

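The DNA replication and nucleotide supply genes are 45 genes whose products license origins, unwind and copy DNA, and make the deoxynucleotides that are used up in copying. They were chosen by name, by a rule that uses no measured value though earlier results of these data were known, and all 45 were found by their Entrez identifiers among the 26258 in the deposited table. By the work of their products they fall into 12 genes of the MCM/CDC45/GINS helicase, 8 of origin recognition and licensing, 9 polymerase and primase subunits, 6 of the clamp and its loader, 5 that process the lagging strand or coat single strands, and 5 nucleotide enzymes.

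RNA was sequenced from HLE cells, a human hepatocellular carcinoma line, with 2 libraries in each of 6 groups. The cells had received a control siRNA (siCtrl), siRNAs against YAP and TAZ together (siY/T), or an siRNA against ATF4 (siATF4), and each was given the vehicle DMSO or Sorafenib (Srf), a multikinase inhibitor, at the 5 µM that the labels give with no time. The figure legends of the study give another dose, and its methods speak of biological triplicates where 2 libraries per group were held here. The labels do not say that the 2 libraries of a group came from separate cultures, so p-values measure only the spread between libraries, which may be technical. All groups were cells of 1 line that carried a transfected siRNA, the siCtrl cells included. Depletion was transient and applied to siY/T and siATF4 cells only.

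Replication origins are marked by the origin recognition complex (ORC), onto which CDC6 and CDT1 load the MCM2-7 ring before S phase. CDC45 and the GINS complex then turn the ring into the running helicase, polymerase α with primase starts each strand, polymerases δ and ε extend it on the PCNA clamp loaded by replication factor C, and FEN1 and LIG1 finish the lagging strand. Many of these genes are read mainly in late G1 and S phase under E2F transcription factors, so that cultures with fewer cycling cells usually hold less of their RNA. In RNA from bulk cultures, fewer cells in S phase and less RNA per cell cannot be told apart.

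Each library held between 41408348 and 53619732 reads on genes, and the members had between 439 and 36764 reads each in every library. Values are CPM, reads per 1000000 reads on genes, which were tested with limma on log2(CPM + 0.5) over 13515 genes, and all 45 members passed the filter, which asked for 1 CPM or more in 2 or more libraries. The thresholds of the study, an unadjusted P under 0.05 and a log2 fold change of 0.58 or more, decided which genes were called lower or higher. Differences between Sorafenib effects were called where the P, adjusted by Benjamini-Hochberg, was under 0.05. The siRNA targets were lowered as labelled: in DMSO the log2 fold change was -2.41 ± 0.08 (SE) for YAP1 and -1.50 ± 0.09 for WWTR1, which encodes TAZ, in siY/T cells, and -1.33 ± 0.04 for ATF4 in siATF4 cells. WWTR1 was also lower in siATF4 cells in DMSO, with a log2 fold change of -0.70 ± 0.09. ATF4 was in turn lower in siY/T than in siCtrl cells, at -0.30 ± 0.04 in DMSO and -0.63 ± 0.04 with Sorafenib. In DMSO each siRNA thus left a target of the other below its siCtrl level. Values of YAP1 in siATF4 cells, and of WWTR1 there with Sorafenib, are not given here. Of the hepatocyte markers, ALB, AFP, APOA1, TTR and HNF4A were at or near 0 in all 12 libraries and SERPINA1 averaged 0.70 CPM, while the mesenchymal gene VIM averaged 2387 CPM. Of the 4 epithelial markers, the keratins KRT8 and KRT18 averaged 1537 and 747 CPM, CDH1 2.77 CPM, and EPCAM, at 0.34 CPM, was below the filter. They moved between groups: CDH1 changed by 2.37 ± 0.17 with Sorafenib in siCtrl cells and stood at -3.14 ± 0.17 in siATF4 against siCtrl cells with Sorafenib, and KRT8 stood at -1.74 ± 0.05 in siY/T and -0.94 ± 0.05 in siATF4 cells in DMSO. Their part in the values of the members was not tested. The leukocyte and endothelial genes PTPRC, PECAM1 and VWF were at or near 0, and CD68 averaged 39.4 CPM. The 2 libraries of siY/T DMSO stood farthest apart, with an SD of their log2 differences of 0.190 against 0.110 to 0.132 in the other groups.

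The promoters of 39 members were held in a RefSeq table of GRCh38.p14, and they were searched over the 250 bases upstream of the start on both strands. Searched as E2F-like letters were TTTGGCG, which CDC45 holds, then TTTCCCG, which LIG1 holds, then TTTCGCG, which POLA2 holds, and the further spelling TTTGCCG of this kind. The box bound by NF-Y was searched as CCAAT, and the cell cycle element CHR was searched as TTTGAA and in its other spelling as TTTAAA instead. E2F-like letters stood in 17 of the 39, or 43.6%, against 7.35% of the 27305 promoters in the table. CCAAT stood in 22 of them, or 56.4%, against 33.0%, and CHR letters in 3, or 7.69%, against 22.1%. A promoter stretch from each subcomplex is printed to let these letters be seen beside the values of the gene, with matches in capitals, 5′ to 3′ on the strand of the gene.
CDC45, chr22:19479788-19479919, plus strand: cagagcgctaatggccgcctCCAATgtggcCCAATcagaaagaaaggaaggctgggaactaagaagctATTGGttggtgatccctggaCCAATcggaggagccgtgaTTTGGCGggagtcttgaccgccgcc
CDC6, chr17:40287733-40287877, plus strand: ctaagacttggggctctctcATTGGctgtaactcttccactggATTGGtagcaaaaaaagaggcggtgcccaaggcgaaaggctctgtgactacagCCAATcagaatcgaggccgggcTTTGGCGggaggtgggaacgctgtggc
POLA2, chr11:65261889-65261961, plus strand: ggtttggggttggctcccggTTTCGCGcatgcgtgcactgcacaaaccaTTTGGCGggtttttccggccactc
PCNA, chr20:5126623-5126794, minus strand: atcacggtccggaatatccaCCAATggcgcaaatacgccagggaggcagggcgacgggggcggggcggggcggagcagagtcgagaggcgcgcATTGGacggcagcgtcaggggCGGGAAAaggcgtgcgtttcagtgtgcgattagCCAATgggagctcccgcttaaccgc
LIG1, chr19:48170432-48170478, minus strand: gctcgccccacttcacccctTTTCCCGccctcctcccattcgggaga
RRM2, chr2:10122596-10122734, plus strand: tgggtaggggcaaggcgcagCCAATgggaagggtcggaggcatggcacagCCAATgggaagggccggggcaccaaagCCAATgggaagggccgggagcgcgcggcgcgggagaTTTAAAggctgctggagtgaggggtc
No match of one kind overlapped another in these 6 stretches, and RRM2 was the one of the 6 without E2F-like letters. A match describes the letters of the window and says nothing of binding.

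Sorafenib lowered the replication genes as a group in siCtrl cells. Of the 45 members, 30 were called lower and 0 higher by limma, where 5.15% of all genes tested were called lower and 12.3% higher. The median log2 fold change of the members was -0.75, against 0.05 over all genes tested, and the range ran from -1.62 to 0.14. At an adjusted P under 0.05 with any fold change, 43 members were lower, against 26.9% of all genes, and 0 were higher, against 36.3%. At an unadjusted P under 0.05, 43 were lower and 0 higher, against 28.3% and 38.3% of all genes. On the recovered reads edgeR and DESeq2 also called 30 lower and 0 higher, where they called 6.59% and 6.73% of all genes lower and 13.4% and 12.7% higher. For 44 members both Sorafenib libraries lay below both DMSO libraries, which held for 36.8% of all genes. ORC4 was the exception. Leaving out 1 siCtrl library at a time took the calls near the fold threshold below it, for POLD3 (without DMSO replicate 1 or Srf replicate 2), PRIM2 and RFC4 (Srf replicate 2), RFC2 (Srf replicate 1) and RRM1 (DMSO replicate 2), with values of -0.56 to -0.58. Quantile normalization did so for MCM3 (-0.52), POLD3 (-0.57) and RRM1 (-0.49). The sum over the 45 members was 7356 and 7379 CPM in the 2 siCtrl DMSO libraries and 4326 and 4501 CPM in the 2 siCtrl Srf libraries.

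Most of these genes were lowered in siY/T cells as well. There 31 members were called lower and 0 higher, where 4.14% of all genes were called lower and 5.83% higher in the main scaling, an order that turned with quantile normalization (729 genes lower and 645 higher), and 28 of the 31 were among the 30 called in siCtrl cells. The median was -0.75 against 0.04 over all genes tested. With any fold change, 41 were lower and 2, ORC4 and RFC1, higher at an adjusted P under 0.05, where 23.5% and 29.5% of all genes were. Both Sorafenib libraries lay below both DMSO libraries for 42 members and above them for 2, against 32.1% and 39.6% of all genes. At an unadjusted P under 0.05, 42 were lower and 2 higher, against 25.9% and 32.8% of all genes. The count tests edgeR and DESeq2 each called 33 lower and 0 higher, where they called 5.58% and 5.31% of all genes lower and 6.61% and 6.42% higher. Summed over the members, siY/T DMSO libraries held 6926 and 6728 CPM and siY/T Srf libraries 4114 and 4009 CPM.

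In siATF4 cells, RRM2 was the 1 member called lower with Sorafenib and 0 were called higher, where 2.95% of all genes were called lower and 5.68% higher. The median log2 fold change was 0.04, against 0.03 over all genes tested, and the range ran from -0.73 to 0.46. With any fold change, 13 members were lower and 11 higher at an adjusted P under 0.05, where 22.4% and 27.9% of all genes were, and 21 passed in neither direction. Both Sorafenib libraries lay below both DMSO libraries for 18 members and above them for 19, against 36.1% and 43.5% of all genes. At an unadjusted P under 0.05, 14 were lower and 12 higher, against 25.3% and 31.4% of all genes. Both edgeR and DESeq2 called 1 lower and 0 higher, where they called 4.06% and 4.01% of all genes lower and 7.3% and 7.01% higher. The sums were 7012 and 7115 CPM in siATF4 DMSO and 6899 and 6944 CPM in siATF4 Srf.

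**Figure D1:**
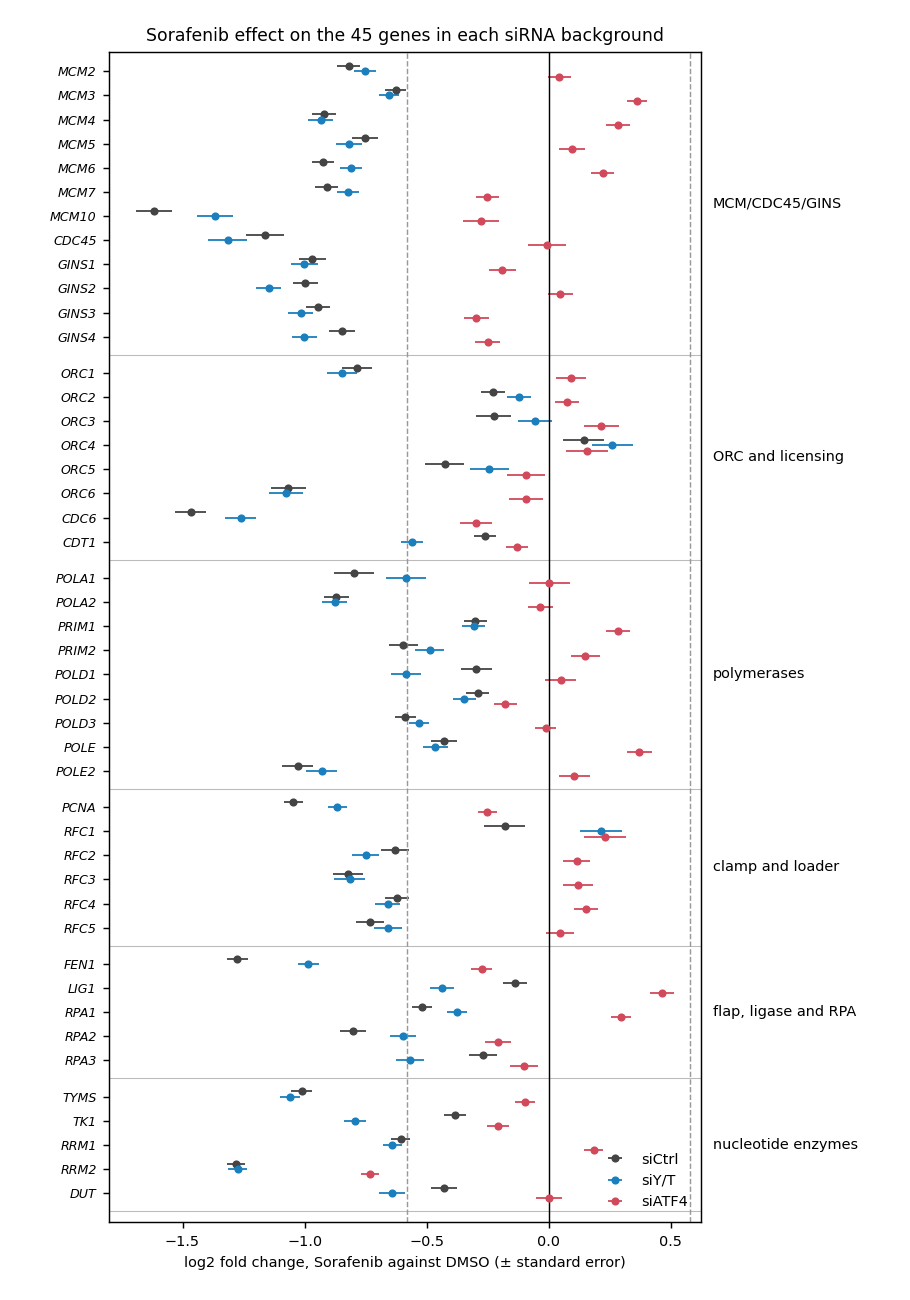
Log2 fold change of Sorafenib against DMSO (horizontal axis) for each of the 45 genes, by subcomplex, in siCtrl (grey), siY/T (blue) and siATF4 (red) cells. Points are limma estimates with bars of 1 standard error from 2 libraries per group, dashed lines stand at 0.58 in either direction, and the red points lie around 0 while most grey and blue points lie below it.

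The difference between backgrounds was tested by itself. Compared with siCtrl cells, the Sorafenib effect in siATF4 cells was higher for 41 of 45 members at an adjusted P under 0.05 and lower for 0, where 19.3% of all genes were higher and 21.8% lower. The median difference was 0.78 on the log2 scale, and the 4 members that did not pass were ORC4 (0.01 ± 0.12), CDT1 (0.13 ± 0.06), POLD2 (0.11 ± 0.07) and RPA3 (0.17 ± 0.08). With an unadjusted P under 0.05, 41 were higher and 0 lower, against 23.1% and 26.1% of all genes. By edgeR and DESeq2, 40 were higher and 0 lower, where 19.7% and 18.2% of all genes were higher and 20% and 16.6% lower. ORC5 (0.33 ± 0.11) lost its call without either siCtrl DMSO library, siCtrl Srf replicate 2, siATF4 DMSO replicate 2 or either siATF4 Srf library (0.23 to 0.36, adjusted P = 0.054 to 0.13), and with no filter on low values (adjusted P = 0.057). Between siATF4 and siY/T cells, a comparison added after the data were seen, the effect was higher for 40 members and lower for 0, where 18.6% and 15.7% of all genes were, and 42 were higher and 0 lower at an unadjusted P under 0.05, against 23.0% and 21.1% of all genes. There edgeR and DESeq2 found 41 and 40 higher and 0 lower, where 18.4% and 15.9% of all genes were higher and 15.0% and 13.4% lower. Between siY/T and siCtrl cells, 8 members differed, 5 lower and 3 higher, where 14.2% of all genes were lower and 7.81% higher, and the median difference was -0.01. At an unadjusted P under 0.05, 6 were lower and 7 higher, against 21.5% and 14.8% of all genes, and edgeR and DESeq2 each found 5 lower and 3 higher, where 14.2% and 10.5% of all genes were lower and 8.15% and 8.5% higher. The balance of the members had no steady direction, since 24 of the 45 differences were negative in the main scaling, 20 with TMM scaling and 28 with quantile normalization. The count of 8 was 5 without siCtrl DMSO replicate 1 or 2, 3 without siCtrl Srf replicate 2 and 4 without siY/T Srf replicate 1, and 11 and 12 without siY/T DMSO replicates 1 and 2. Leaving out the former added CDC6, RPA1 and RPA2 as higher, and leaving out the latter added MCM10, ORC3 and POLA1 as higher and DUT as lower. Across the 45 members the log2 fold changes in siY/T and siCtrl cells had a Pearson r of 0.89 and those in siATF4 and siCtrl cells an r of 0.53, given as a description over genes of the same libraries.

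**Figure D2:**
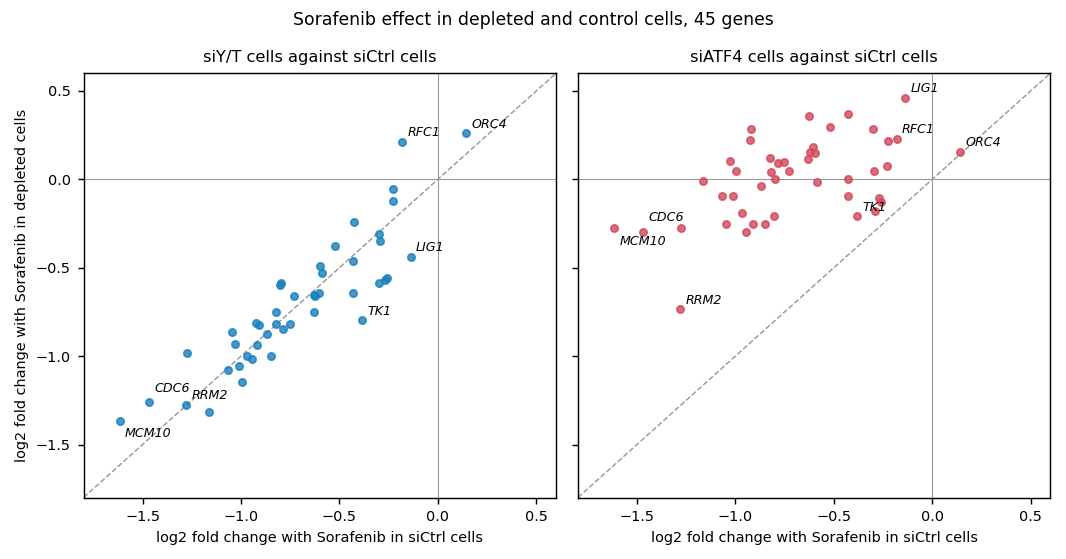
Log2 fold change with Sorafenib in siCtrl cells (horizontal axis) against that in siY/T cells (left) and siATF4 cells (right), with 1 point for each of the 45 genes and the line of equal change dashed. Points of siY/T cells follow the dashed line, and those of siATF4 cells lie above it, with RRM2 the lowest at -0.73.

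The helicase genes fell together and had the largest median change of the 6 subcomplexes in siCtrl cells. All 12 of the MCM/CDC45/GINS genes were called lower in siCtrl cells, with a median log2 fold change of -0.92, and all 12 in siY/T cells, with a median of -0.97 (in siCtrl cells MCM3 missed the fold threshold with quantile normalization), while 0 were called in siATF4 cells, with a median of 0.02. Their Sorafenib effect was higher in siATF4 than in siCtrl cells for 12 of 12, where 19.3% of all genes were. For this subcomplex and those below, 5.15%, 4.14% and 2.95% of all genes were called lower in siCtrl, siY/T and siATF4 cells. At an adjusted P under 0.05 with any fold change, 26.9%, 23.5% and 22.4% of all genes were lower.

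MCM10 (Entrez 55388, chr10:13203558-13253110, plus strand, GRCh37), which helps to start the loaded helicase, showed the largest fall of all members in siCtrl cells. It stood at 106 and 104 CPM in siCtrl DMSO, 33.2 and 34.6 in siCtrl Srf, 70.5 and 74.1 in siY/T DMSO, 30.5 and 25.1 in siY/T Srf, 97.3 and 104 in siATF4 DMSO, and 82.3 and 83.8 in siATF4 Srf. Both Sorafenib libraries lay below both DMSO libraries in each background. The log2 fold changes were -1.62 ± 0.07, -1.37 ± 0.07 and -0.28 ± 0.07 in siCtrl, siY/T and siATF4 cells, and that in siATF4 cells differed from siCtrl cells by 1.34 ± 0.10 (adjusted P = 1.94e-06).

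CDC45 (Entrez 8318, chr22:19466980-19508135, plus strand), the subunit that joins the ring to GINS, was read at 39.1 and 38.6 CPM in siCtrl DMSO and 16.9 and 17.3 in siCtrl Srf. In siY/T cells it went from 30.5 and 27.2 to 12.4 and 10.3 CPM. In siATF4 cells it was higher to begin with, at 56.5 and 55.1 CPM, and the Sorafenib libraries overlapped these at 55.3 and 55.5. Its log2 fold changes with Sorafenib were -1.16 ± 0.08, -1.32 ± 0.08 and -0.01 ± 0.08, and its promoter stretch above has both E2F-like and CCAAT letters.

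The 6 genes of the MCM2-7 ring kept close to each other in siCtrl cells, from -0.63 for MCM3 to -0.92 for MCM4 and MCM6, and in siY/T cells, from -0.65 for MCM3 to -0.93 for MCM4. Under ATF4 depletion they parted: MCM3, MCM4 and MCM6 were higher with Sorafenib, at 0.36 ± 0.04, 0.28 ± 0.05 and 0.22 ± 0.05, MCM7 was lower, at -0.25 ± 0.05, and MCM2 and MCM5, at 0.04 ± 0.05 and 0.10 ± 0.05, did not pass at an adjusted P under 0.05. The 4 GINS genes, whose products form 1 complex, fell by 0.85 to 1.00 on the log2 scale in siCtrl cells and by 1.00 to 1.15 in siY/T cells. With ATF4 depleted, GINS1, GINS3 and GINS4 were lower by smaller amounts, -0.19 to -0.30, and GINS2 stood at 0.05 ± 0.05.

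Origin recognition and licensing genes split. Of the 8, 3 were called lower in siCtrl cells (CDC6, ORC6 and ORC1) and the same 3 in siY/T cells, with medians over the 8 of -0.34 and -0.40, and 0 in siATF4 cells, with a median of -0.01.

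CDC6 (Entrez 990, chr17:38444131-38460909, plus strand), the loader of the MCM ring, read 128 and 131 CPM in siCtrl DMSO and 45.2 and 48.1 in siCtrl Srf. It went from 101 and 91.2 to 42.0 and 37.5 CPM in siY/T cells, and from 103 and 100.1 to 85.7 and 79.3 CPM in siATF4 cells. The groups did not overlap in any background. The log2 fold changes of -1.47 ± 0.06, -1.26 ± 0.06 and -0.30 ± 0.06 were followed by a test of their difference, in which the fall in siATF4 cells was smaller by 1.17 ± 0.09 (adjusted P = 2.02e-06).

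ORC6 (Entrez 23594, chr16:46723555-46732306, plus strand), the smallest ORC subunit, stood at 41.4 and 41.7 CPM in siCtrl DMSO and 18.6 and 20.6 in siCtrl Srf, at 29.7 and 27.0 and then 13.99 and 12.4 in siY/T cells, and at 45.9 and 46.6 and then 44.4 and 42.2 in siATF4 cells. Sorafenib changed it by -1.07 ± 0.07 and -1.08 ± 0.07 in siCtrl and siY/T cells, with -0.09 ± 0.07 in siATF4 cells. ORC1, the regulated large subunit, followed it at -0.79 ± 0.06, -0.85 ± 0.06 and 0.09 ± 0.06. ORC2, ORC3 and ORC5 moved little in siCtrl cells, between -0.23 and -0.43, all at an adjusted P under 0.05.

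ORC4 (Entrez 5000, chr2:148687965-148779173, minus strand) had the highest log2 fold change of the members in siCtrl cells, 0.14 ± 0.09, which did not pass. It was read at 32.7 and 32.2 CPM in siCtrl DMSO and 39.5 and 32.5 in siCtrl Srf, at 40.2 and 45.4 and then 54.1 and 48.7 in siY/T cells, and at 17.8 and 17.7 and then 19.9 and 19.8 in siATF4 cells. Its level followed the siRNA: compared with siCtrl cells in DMSO it was lower in siATF4 cells by -0.85 ± 0.09, the 1 member called, and higher in siY/T cells, at 0.39 ± 0.09. ORC4 was named after its values were seen, and its exons overlap those of ACVR2A and MBD5 on the opposite strand.

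CDT1 (Entrez 81620, chr16:88870197-88875666, plus strand), the partner of CDC6 in loading, was read at 69.6 and 67.0 CPM in siCtrl DMSO and 55.5 and 58.4 in siCtrl Srf. It went from 73.6 and 74.7 to 50.2 and 50.1 CPM in siY/T cells, and from 70.8 and 69.8 to 63.8 and 64.5 in siATF4 cells. Its effect in siY/T cells, -0.56 ± 0.04, was lower than that in siCtrl cells, -0.26 ± 0.04, by -0.30 ± 0.06 (adjusted P = 0.0057).

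Among the polymerases, 5 of 9 were called lower in siCtrl cells and 4 of 9 in siY/T cells, with medians of -0.59 and -0.53, and 0 in siATF4 cells, with a median of 0.05. All 9 were lower at an adjusted P under 0.05 in both siCtrl and siY/T cells. In siCtrl cells the 5 were POLE2, POLA2, POLA1, PRIM2 and POLD3. POLA1, called in siY/T cells at -0.59, was at -0.42 without siY/T DMSO replicate 2 and -0.50 without siY/T Srf replicate 2.

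POLE2 (Entrez 5427, chr14:50110273-50155140, minus strand), the second subunit of the leading-strand polymerase, stood at 29.2 and 28.2 CPM in siCtrl DMSO and 13.7 and 13.9 in siCtrl Srf, at 26.4 and 24.8 and then 13.9 and 12.5 in siY/T cells, and at 26.2 and 26.5 and then 29.1 and 27.6 in siATF4 cells. Sorafenib libraries thus lay below DMSO libraries in the first 2 backgrounds and above them in the last, where the change of 0.10 ± 0.06 did not pass. Its catalytic partner POLE went from -0.43 ± 0.05 in siCtrl cells to 0.37 ± 0.05 in siATF4 cells, and was one of the 11 members higher there.

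POLA2 (Entrez 23649, chr11:65029384-65073430, plus strand), the B subunit of polymerase α, read 146 and 148 CPM in siCtrl DMSO, 78.0 and 82.4 in siCtrl Srf, 141 and 128 in siY/T DMSO, 75.3 and 70.7 in siY/T Srf, 158 and 160.5 in siATF4 DMSO, and 156 and 155 in siATF4 Srf. The changes of -0.87 ± 0.05 and -0.88 ± 0.05 in siCtrl and siY/T cells stood against -0.04 ± 0.05 in siATF4 cells. POLA1, which makes the DNA part of the primer, fell by 0.80 on the log2 scale in siCtrl cells, and the primase subunits PRIM1 and PRIM2 were at -0.30 ± 0.05 and -0.60 ± 0.06.

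POLD1 (Entrez 5424, chr19:50887461-50921275, plus strand), the catalytic subunit of polymerase δ, was the polymerase gene that differed between siY/T and siCtrl cells. Its libraries stood at 108 and 99.4 CPM in siCtrl DMSO and 78.7 and 89.8 in siCtrl Srf, at 96.1 and 94.5 and then 64.9 and 61.8 in siY/T cells, and at 116 and 120.0 and then 119 and 126 in siATF4 cells, where they overlapped. The effects of -0.59 ± 0.06 in siY/T and -0.30 ± 0.06 in siCtrl cells differed by -0.29 ± 0.09 (adjusted P = 0.034), which missed the threshold without siCtrl Srf replicate 2 (-0.19, adjusted P = 0.15) and in 8 other of the alternatives run. Its call in siY/T cells was lost without siY/T DMSO replicate 1 (-0.57) or siY/T Srf replicate 2 (-0.55).

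The clamp and its loader were called lower for 5 of 6 genes in siCtrl cells and for the same 5 in siY/T cells, with medians of -0.68 and -0.71, and for 0 in siATF4 cells, with a median of 0.12. RFC1 was the exception.

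PCNA (Entrez 5111, chr20:5095599-5107272, minus strand), the sliding clamp, was read at 414 and 418 CPM in siCtrl DMSO and 197 and 205 in siCtrl Srf, at 412 and 397 and then 222 and 222 in siY/T cells, and at 340.2 and 343 and then 282 and 291 in siATF4 cells. Every Sorafenib library lay below the DMSO libraries of its background. The log2 fold changes were -1.05 ± 0.04, -0.87 ± 0.04 and -0.25 ± 0.04, and the fall in siATF4 cells was smaller than in siCtrl cells by 0.79 ± 0.05 (adjusted P = 7.97e-07). The difference between siY/T and siCtrl cells, 0.18 ± 0.05 (adjusted P = 0.033), was lost under 10 of the alternatives run, with quantile normalization giving 0.08 (adjusted P = 0.35).

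RFC3 (Entrez 5983, chr13:34392206-34540695, plus strand), a small loader subunit, went from 45.7 and 45.5 to 26.5 and 24.7 CPM in siCtrl cells and from 35.8 and 36.6 to 21.7 and 19.1 CPM in siY/T cells, a change of -0.82 ± 0.06 in each. In siATF4 cells it stood at 44.6 and 44.5 CPM in DMSO and 49.4 and 47.4 with Sorafenib. RFC2, RFC4 and RFC5 ranged from -0.62 to -0.73 in siCtrl cells.

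RFC1 (Entrez 5981, chr4:39289076-39367995, minus strand), the large loader subunit, read 153 and 163 CPM in siCtrl DMSO and 144 and 135 in siCtrl Srf, 119 and 153 and then 158 and 154 in siY/T cells, and 123 and 127 and then 148 and 145 in siATF4 cells. The siY/T DMSO libraries were the farthest apart for this gene. The siY/T Srf libraries, at 158 and 154 CPM, lay far above DMSO replicate 1, at 119, but close to replicate 2, at 153. The rise in siY/T cells thus rested mostly on 1 DMSO library. Its effect in siY/T cells differed from that in siCtrl cells by 0.40 ± 0.12 (adjusted P = 0.034). RFC1 lost this call when either siCtrl DMSO, either siCtrl Srf or either siY/T Srf library was left out (0.35 to 0.44). RFC1 also lost it with no filter on low values (adjusted P = 0.094) and in a fit of only the groups compared (adjusted P = 0.073). Its difference between siATF4 and siCtrl cells, 0.41 ± 0.12 (adjusted P = 0.016), was lost without siCtrl DMSO replicate 2, siCtrl Srf replicate 2, siATF4 DMSO replicate 1 or siATF4 Srf replicate 1 (0.37 to 0.40, adjusted P = 0.054 to 0.067) and with no filter on low values (adjusted P = 0.053).

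Of the flap, ligase and RPA genes, FEN1 and RPA2 were called lower in both siCtrl and siY/T cells and 0 of 5 in siATF4 cells, with medians of -0.52, -0.57 and -0.10.

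FEN1 (Entrez 2237, chr11:61560383-61564710, plus strand), the nuclease that trims Okazaki flaps, stood at 235 and 237 CPM in siCtrl DMSO and 94.5 and 100.0 in siCtrl Srf, at 221 and 212 and then 109.5 and 109 in siY/T cells, and at 249 and 253 and then 202 and 214 in siATF4 cells. Its falls of -1.28 ± 0.04, -0.99 ± 0.04 and -0.28 ± 0.04 differed from each other, by 0.29 ± 0.06 between siY/T and siCtrl cells (adjusted P = 0.0061) and by 1.00 ± 0.06 between siATF4 and siCtrl cells (adjusted P = 5.05e-07). With quantile normalization the former was 0.18 and did not pass (adjusted P = 0.067).

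RPA2 (Entrez 6118, chr1:28218035-28241257, minus strand), a subunit of the single-strand binding protein, went from 82.0 and 85.1 to 48.0 and 47.2 CPM in siCtrl cells, from 78.6 and 70.1 to 48.8 and 49.0 in siY/T cells, and from 108 and 111 to 96.5 and 93.9 in siATF4 cells. The changes were -0.80 ± 0.05, -0.60 ± 0.05 and -0.21 ± 0.05. That in siY/T cells was under the fold threshold without siY/T DMSO replicate 1 (-0.51).

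LIG1 (Entrez 3978, chr19:48618702-48673860, minus strand), the ligase that seals Okazaki fragments, moved in opposite directions by background. It was read at 97.5 and 94.8 CPM in siCtrl DMSO and 84.2 and 90.6 in siCtrl Srf, at 107 and 107 and then 78.9 and 79.1 in siY/T cells, and at 65.5 and 69.7 and then 91.3 and 95.3 in siATF4 cells. The log2 fold changes were -0.14 ± 0.05, -0.44 ± 0.05 and 0.46 ± 0.05, each at an adjusted P under 0.05. In siATF4 cells the rise started from a lower level, since in DMSO LIG1 was at -0.51 ± 0.05 against siCtrl cells, and with Sorafenib the 2 backgrounds stood at 0.09 ± 0.05, which did not pass. Its difference between siY/T and siCtrl cells, -0.30 ± 0.07 (adjusted P = 0.0089), missed the threshold without siCtrl Srf replicate 2 (-0.25, adjusted P = 0.051).

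Nucleotide enzymes were called lower for 3 of 5 genes in siCtrl cells, RRM2, TYMS and RRM1, and for all 5 in siY/T cells, with medians of -0.61 and -0.80. In siATF4 cells 1 was called lower, with a median of -0.10.

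RRM2 (Entrez 6241, chr2:10260825-10351851, plus strand), the S-phase subunit of ribonucleotide reductase, which makes deoxynucleotides, kept a fall in all 3 backgrounds. Its libraries stood at 519 and 525 CPM in siCtrl DMSO and 214 and 215 in siCtrl Srf, at 564 and 546 and then 228 and 229.6 in siY/T cells, and at 518 and 527 and then 321 and 307 in siATF4 cells. The log2 fold changes were -1.28 ± 0.04, -1.27 ± 0.04 and -0.73 ± 0.04. Although called in siATF4 cells, the fall there was smaller than in siCtrl cells by 0.55 ± 0.05 (adjusted P = 9.03e-06). The partner subunit RRM1 changed by -0.61 ± 0.04, -0.64 ± 0.04 and 0.18 ± 0.04.

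TYMS (Entrez 7298, chr18:657653-673578, plus strand), thymidylate synthase, was read at 402 and 409 CPM in siCtrl DMSO and 195 and 206 in siCtrl Srf, at 324 and 312 and then 150.3 and 155 in siY/T cells, and at 405 and 419 and then 389.8 and 381 in siATF4 cells. The changes of -1.01 ± 0.04 and -1.06 ± 0.04 stood against -0.10 ± 0.04 in siATF4 cells, where the adjusted P was 0.069. Exons of ENOSF1 overlap TYMS on the opposite strand.

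TK1 (Entrez 7083, chr17:76170172-76183314, minus strand), the salvage kinase for thymidine, showed the largest difference between siY/T and siCtrl cells. It went from 686 and 683 to 509 and 540.3 CPM in siCtrl cells, from 695 and 668 to 396 and 389 in siY/T cells, and from 545 and 546 to 455 and 491 in siATF4 cells. The effects of -0.38 ± 0.05 and -0.80 ± 0.05 in siCtrl and siY/T cells differed by -0.41 ± 0.06 (adjusted P = 0.00099). The difference between siATF4 and siCtrl cells, 0.18 ± 0.06 (adjusted P = 0.043), was lost when any of 8 single libraries was left out, namely either siCtrl DMSO, siY/T Srf or siATF4 DMSO library, siCtrl Srf replicate 1 or siATF4 Srf replicate 2 (0.12 to 0.18, adjusted P = 0.053 to 0.17). It was also lost with edgeR (adjusted P = 0.059), DESeq2 (0.054), quantile normalization (0.056), no filter on low values (0.085) and the replicate number as a block (0.051).

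**Figure D3:**
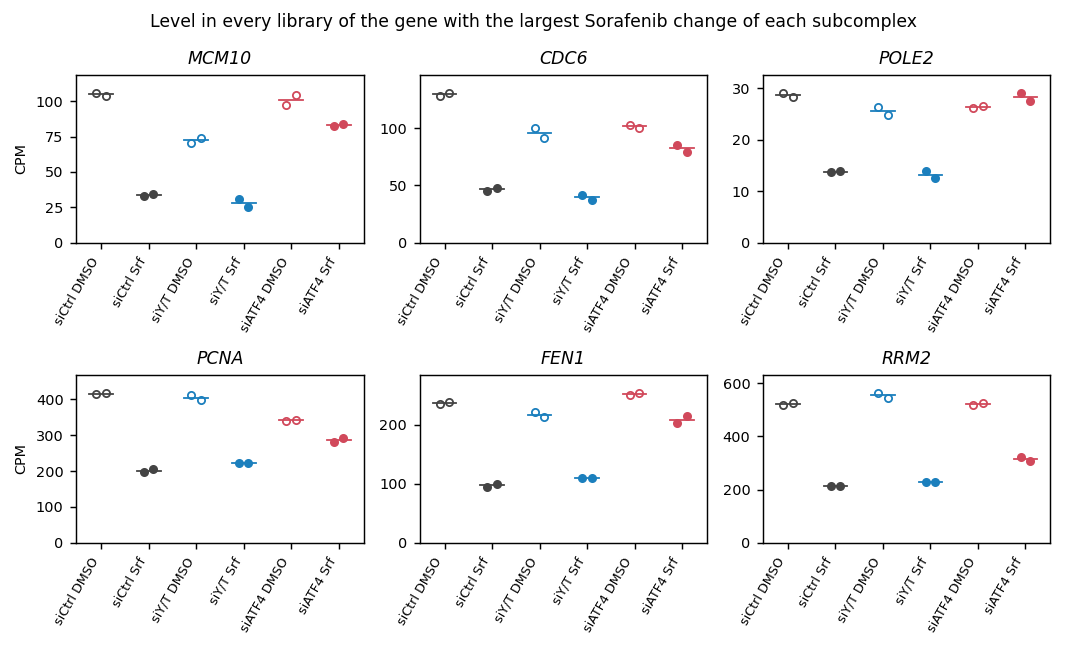
CPM (vertical axis, from 0) in each of the 12 libraries for the gene with the largest Sorafenib change in siCtrl cells of each subcomplex; open circles are DMSO and filled circles Sorafenib libraries, lines are means of 2, and colours are backgrounds. Sorafenib libraries lie far below DMSO libraries in siCtrl and siY/T cells, whereas in siATF4 cells POLE2 does not fall and RRM2 falls from 518 and 527 to 321 and 307 CPM.

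Levels in DMSO gave the point from which each background started. In siY/T cells 0 members were called lower or higher than in siCtrl cells by limma, where 3.61% of all genes were called lower and 11.0% higher, although 26 were lower and 6 higher at an adjusted P under 0.05, with a median of -0.14, where 22.8% and 37.3% of all genes were. Both siY/T libraries lay below both siCtrl libraries for 33 members and above them for 7, against 30.3% and 46.4% of all genes. With an unadjusted P under 0.05 there were 28 lower and 7 higher, against 24.7% and 39.6% of all genes. MCM10 and ORC6 were the 2 called lower by edgeR and DESeq2, which called 0 higher, where they called 5.47% and 5.7% of all genes lower and 11.1% and 10.2% higher. In siATF4 cells 1 was called lower and 0 higher, where 14.1% and 8.57% of all genes were called, with 14 lower and 13 higher at an adjusted P under 0.05 and a median of 0.02, where 34.4% and 33.4% of all genes were. Both siATF4 libraries lay below both siCtrl libraries for 17 members and above them for 21, against 44.3% and 43.7% of all genes. At an unadjusted P under 0.05, 14 were lower and 15 higher, against 35.8% and 34.8% of all genes. Here edgeR and DESeq2 called 1 lower and 0 higher, where they called 15.9% and 15.8% of all genes lower and 10.0% and 9.69% higher. MCM4 (-0.45 ± 0.05), RPA1 (-0.50 ± 0.04) and RRM1 (-0.48 ± 0.04) were among the lower, and CDC45 (0.52 ± 0.08), MCM7 (0.40 ± 0.05) and RPA2 (0.39 ± 0.05) among the higher.

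With Sorafenib in both backgrounds, a comparison added after the data were seen, siATF4 cells had 31 members called higher and 1, ORC4, lower than siCtrl cells, where 10.3% of all genes were called higher and 18.7% lower. At an adjusted P under 0.05 with any fold change, 41 were higher and 2 lower, against 35.8% and 37.4% of all genes, and the counts were the same at an unadjusted P under 0.05, against 36.7% and 38.3%. Again edgeR and DESeq2 called 31 higher and 1 lower, where they called 11.8% and 11.7% of all genes higher and 19.9% and 19.7% lower. The median was 0.76, CDC45 stood highest at 1.67 ± 0.08, and MCM10, ORC6 and FEN1 followed at 1.28 ± 0.07, 1.13 ± 0.07 and 1.09 ± 0.04. For 43 members both siATF4 Srf libraries lay above both siCtrl Srf libraries, which held for 43.0% of all genes, and for 2 below them, against 44.1%. These values share the siCtrl Srf libraries with the Sorafenib effect in siCtrl cells. In siY/T cells with Sorafenib, also compared only after the data were seen, 0 members were called in either direction by limma, where 3.84% of all genes were called lower and 6.11% higher, with 22 lower and 3 higher at an adjusted P under 0.05 and a median of -0.13, where 18.8% and 30.2% of all genes were. Both siY/T libraries lay below both siCtrl libraries for 25 members and above them for 9, against 30.1% and 46.2% of all genes. At an unadjusted P under 0.05 the counts were 22 lower and 6 higher, against 21.4% and 34.0% of all genes. In this comparison edgeR and DESeq2 each called 4 lower and 0 higher, where they called 5.73% and 5.53% of all genes lower and 6.16% and 5.93% higher.

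**Figure D4:**
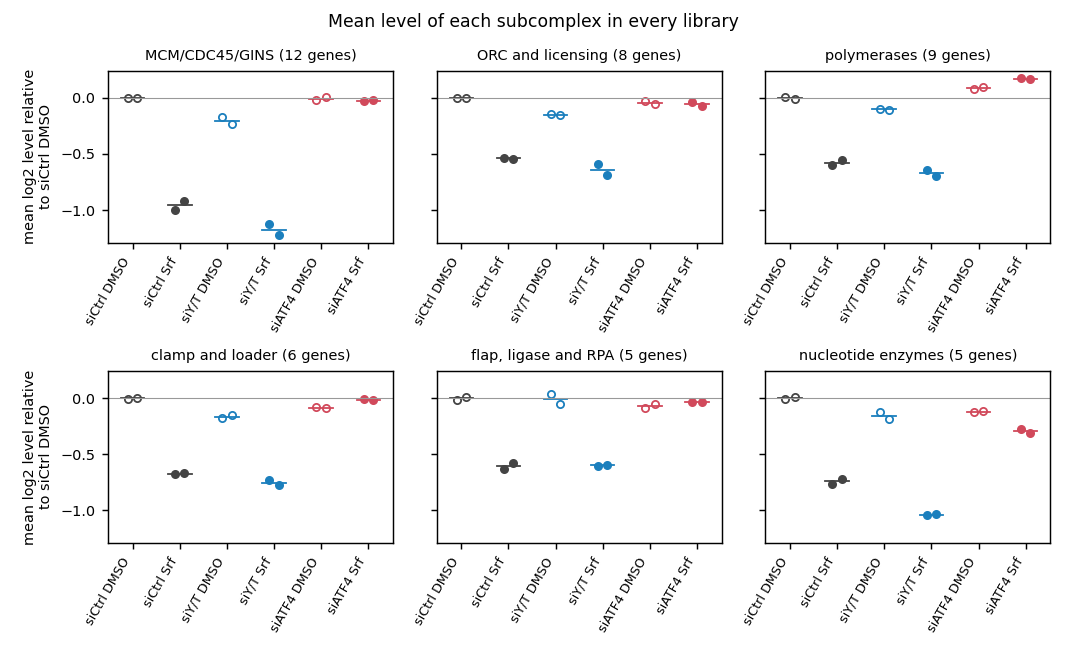
Mean log2 level of each subcomplex relative to the siCtrl DMSO mean (vertical axis) in each of the 12 libraries, with open circles for DMSO, filled circles for Sorafenib and lines for means of 2. In the nucleotide enzyme panel the siCtrl Srf libraries lie at -0.77 and -0.72, the siY/T Srf libraries at -1.04 and -1.03, and the siATF4 Srf libraries, the lowest of any panel in that group, at -0.28 and -0.31.

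Genes around the members were read from lists of other replication factors, other nucleotide supply genes, regulators of G1/S, and G2/M genes. Most other replication factors followed the members. Called lower with Sorafenib were 19 of 25 in siCtrl cells, 14 in siY/T cells and 0 in siATF4 cells. The shares of all genes were 5.15%, 4.14% and 2.95%, and the medians of the list were -0.67, -0.62 and 0.03. CLSPN, the checkpoint adaptor Claspin, was at -1.41 ± 0.07, -1.14 ± 0.07 and -0.12 ± 0.07, ASF1B, a histone chaperone, at -1.18 ± 0.05, -1.23 ± 0.05 and -0.50 ± 0.05, and TICRR, which helps to load CDC45, at -1.04 ± 0.08, -1.24 ± 0.08 and -0.28 ± 0.08. The Sorafenib effect in siATF4 against siCtrl cells was higher for 23 of the 25 and lower for 1, at -0.56. Over all genes 19.3% were higher and 21.8% lower.

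Nucleotide supply outside the members moved less, with 2 of 19 called lower in siCtrl cells, 3 in siY/T cells and 0 in siATF4 cells. These counts stood beside 5.15%, 4.14% and 2.95% of all genes, and the medians of the list were -0.34, -0.16 and 0.05. At an adjusted P under 0.05 with any fold change, 13 of the 19 were lower and 1 higher in siCtrl cells, against 26.9% and 36.3% of all genes. The Sorafenib effect in siATF4 against siCtrl cells was higher for 13 and lower for 1, where 19.3% and 21.8% of all genes were. CTPS1, CTP synthase, changed by -0.95 ± 0.06 in siCtrl cells and UMPS, of pyrimidine synthesis, by -0.63 ± 0.06, while DCTPP1 at -0.54 ± 0.05 was under the fold threshold. RRM2B, the reductase subunit used outside S phase, did not pass at -0.22 ± 0.11, and it was named after its values were seen.

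Regulators of G1/S were called lower for 11 of 19 in siCtrl cells, 9 in siY/T cells and 1 in siATF4 cells, where 1 was called higher. Of all genes, 5.15%, 4.14% and 2.95% were called lower in these backgrounds, and 5.68% higher in siATF4 cells. The medians of the list were -0.72, -0.46 and -0.10. The genes called in siATF4 cells, named after their values were seen, were CDKN1A, which encodes the CDK inhibitor p21 (-1.40 ± 0.10), and RBL2, a relative of RB (0.63 ± 0.06). CDKN1A fell with Sorafenib in siCtrl cells too, as its CPM in the closing section show. CDC25A, a phosphatase that activates CDK2, changed by -1.57 ± 0.07 in siCtrl and -0.39 ± 0.07 in siATF4 cells, CCNE2, cyclin E2, by -1.36 ± 0.12 and -0.38 ± 0.12, and CCND1, cyclin D1, by -1.31 ± 0.08 and, without passing, -0.12 ± 0.08. The activators E2F1 and E2F2 were lower in siCtrl cells, at -0.79 ± 0.06 and -1.16 ± 0.07. In siATF4 cells they stood at 0.14 ± 0.06 and -0.11 ± 0.07, which did not pass, and they were named after their values were seen. Not all of this list fell. At an adjusted P under 0.05, 4 of the 19 were higher in siCtrl cells, at most 0.57, and 4 in siY/T cells. Over all genes these shares were 36.3% and 29.5%. Against siCtrl cells, the Sorafenib effect in siATF4 cells was higher for 14 and lower for 2, where 19.3% and 21.8% of all genes were.

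G2/M genes were called lower for 9 of 13 in siCtrl cells, 11 in siY/T cells and 0 in siATF4 cells. The shares of all genes were 5.15%, 4.14% and 2.95%, and the medians of the list were -0.65, -0.83 and 0.08. MKI67 changed by -0.88 ± 0.12 in siCtrl cells, CDK1 by -0.77 ± 0.05 and AURKA, a mitotic kinase, by -0.73 ± 0.04. The Sorafenib effect on G2/M genes was higher in siATF4 than in siCtrl cells for 13 of 13, where 19.3% of all genes were. These 13 started lower there. In DMSO all 13 were lower in siATF4 than in siCtrl cells at an adjusted P under 0.05, against 34.4% of all genes, with a median of -0.70. With Sorafenib in both, 0 of the 13 were called in either direction by limma's fold rule, against 18.7% of all genes lower and 10.3% higher. At an adjusted P under 0.05, 2 were lower and 5 higher, against 37.4% and 35.8% of all genes. The median was 0.01, where that of the 45 members was 0.76 with 31 called higher.

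**Figure D5:**
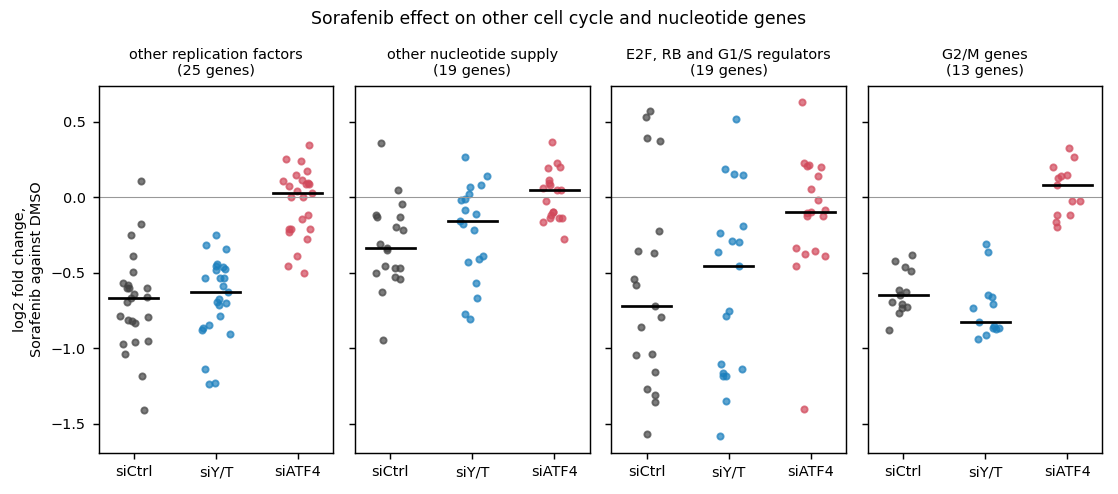
Log2 fold change of Sorafenib against DMSO (vertical axis) for genes of 4 other lists in siCtrl, siY/T and siATF4 cells, with 1 point per gene, spread sideways only to be seen, and the median as a black line. Medians of the G2/M genes were -0.65, -0.83 and 0.08, and those of other replication factors -0.67, -0.62 and 0.03.

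By promoter letters, the 17 members with E2F-like letters had a median Sorafenib log2 fold change of -0.87 in siCtrl cells and the 22 without them -0.61, with ranges of -1.47 to -0.14 and -1.62 to 0.14 that overlapped almost whole. In siATF4 cells the medians were 0.05 and 0.05. MCM10, which fell the most, has no E2F-like letters in its window, and LIG1, which has them, fell the least of the 17. These are descriptions of 39 windows, with no test. The promoter stretches printed above were not a sample of the 39. In each subcomplex the stretch shown belongs to the gene with the most matches among those whose CPM are given by library. Thus CDC45, with 5 matches, was shown and MCM10, with 2, was not. How many printed stretches hold E2F-like letters therefore says nothing of the share among members, which is 17 of 39.

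Exons of 13 members overlap those of another protein-coding gene in the annotation, among them MCM7, FEN1, TYMS and POLA2, and the strand setting of the counting was not stated, so reads of the overlaps may belong to either gene. The direction of the Sorafenib effect over the members in siCtrl cells held under other scalings: with TMM scaling and quantile normalization 44 of 45 log2 fold changes were negative in siCtrl cells, as in the main scaling, with medians of -0.81 and -0.71. The split of all genes called in siCtrl cells moved with the scaling, since lower calls made up 29.5% of them in the main scaling, 39.3% with TMM and 47.7% with quantile normalization. In siY/T cells these shares were 41.5%, 48.5% and 53.1%, and in siATF4 cells 34.2%, 36.7% and 45.3%. In DMSO they were 24.7%, 35.8% and 43.0% for siY/T and 62.3%, 61.8% and 53.7% for siATF4 against siCtrl cells, and for siATF4 with Sorafenib 64.6%, 59.2% and 51.5%. At a log2 fold change of at least 1, 9 members were lower with Sorafenib in siCtrl, 10 in siY/T and 0 in siATF4 cells, against 0.762%, 0.636% and 0.703% of all genes. By that rule 0 were lower in siATF4 cells in DMSO, against 5.65%, and with Sorafenib in both backgrounds 0 were lower and 8 higher in siATF4 cells, against 8.8% and 2.18%.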

How the data were processed

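Per the methods and labels, the authors aligned reads with STAR to hg19, kept unique hits, counted them over RefSeq mRNA exons with QuasR and deposited 1 table of CPM for 12 libraries. The strand setting was not given in the sources used here. CPM were whole multiples of 1 read for 100.0% of values (tolerance 0.001 read), so whole reads were recovered for count tests, where edgeR called 890 genes lower and 1807 higher with Sorafenib in siCtrl cells. Of 26258 Entrez identifiers 26111 were named.

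The main test was limma 3.58.1 (trend, R 4.3.3) on log2(CPM + 0.5) over all 12 libraries, for the 13515 genes that reached 1 CPM in 2 or more libraries; log2 fold changes on this scale understate changes of low genes. Adjustment was by Benjamini-Hochberg over all genes tested, two-sided. edgeR 4.0.16 and DESeq2 1.42.0 were alternatives. The code was tested on simulated data. Members and lists were chosen with earlier results of these data known. Named per subcomplex were the 2 members with the largest Sorafenib change in siCtrl cells and those with the largest difference in siY/T and siATF4 cells, and 3 genes per other list; any other gene was picked once its values were known. Members of 1 count in the other nucleotide supply list are not reported here by name. Plots used matplotlib 3.10.9.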

Additional observations from a re-analysis of the deposited data

Results flagged for a closer look

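The Sorafenib effect differed between siY/T and siCtrl cells at an adjusted P under 0.05 for 8 members, by limma's interaction contrast on the log2 scale with siCtrl subtracted: CDT1 -0.30, POLD1 -0.29, PCNA 0.18, RFC1 0.40, FEN1 0.29, LIG1 -0.30, RPA3 -0.30 and TK1 -0.41. These were 5 lower and 3 higher of 45, where 14.2% of all genes were lower and 7.81% higher, so the members did not stand out from all genes. POLD1, PCNA, RFC1, FEN1 and LIG1 lost their calls under alternatives given with each gene above. RPA3 lost its call without siCtrl DMSO replicate 1 (-0.26), siCtrl Srf replicate 2 (-0.27) or siY/T Srf replicate 1 (-0.28).

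Between siATF4 and siCtrl cells the Sorafenib effect differed for 41 members, all in the direction of a higher value in siATF4 cells. Over all genes 19.3% were higher and 21.8% lower. For MCM/CDC45/GINS genes the log2 difference was: MCM2 0.86, MCM3 0.99, MCM4 1.20, MCM5 0.85, MCM6 1.15, MCM7 0.66, MCM10 1.34, CDC45 1.15, GINS1 0.78, GINS2 1.04, GINS3 0.65 and GINS4 0.60. For origin and licensing genes the log2 difference was: ORC1 0.88, ORC2 0.30, ORC3 0.44, ORC5 0.33, ORC6 0.97 and CDC6 1.17. For polymerase genes the log2 difference was: POLA1 0.80, POLA2 0.84, PRIM1 0.58, PRIM2 0.75, POLD1 0.35, POLD3 0.57, POLE 0.80 and POLE2 1.13. For clamp and loader genes the log2 difference was: PCNA 0.79, RFC1 0.41, RFC2 0.74, RFC3 0.94, RFC4 0.77 and RFC5 0.78. For flap, ligase and RPA genes the log2 difference was: FEN1 1.00, LIG1 0.60, RPA1 0.82 and RPA2 0.60. For nucleotide enzymes the log2 difference was: TYMS 0.92, TK1 0.18, RRM1 0.79, RRM2 0.55 and DUT 0.43. Both contrasts share the siCtrl libraries. The test for a stray library needs 4 or more samples in a group and was not run on groups of 2.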

How the results depend on the processing

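Of the single-gene values 6831 stayed on their side of the threshold, 71 lost a call and 28 gained one. At a log2 fold change of at least 1, lowered members numbered 9 in siCtrl, 10 in siY/T and 0 in siATF4 cells with Sorafenib, 0 in siATF4 cells in DMSO and 0 in siATF4 cells with Sorafenib against siCtrl, where 8 were raised. In the same order 0.762%, 0.636%, 0.703%, 5.65% and 8.8% of all genes were lowered, and 2.18% were raised in the last. At an adjusted P under 0.05 with any fold change, raised members with Sorafenib numbered 2 in siY/T and 11 in siATF4 cells, and lowered ones 13 in siATF4 cells. Of all genes 29.5%, 27.9% and 22.4% were. By that rule, lowered and raised members were 26 and 6 for siY/T in DMSO, 14 and 13 for siATF4 in DMSO, 22 and 3 for siY/T with Sorafenib, and 2 lowered for siATF4 with Sorafenib. The shares of all genes were 22.8% and 37.3%, 34.4% and 33.4%, 18.8% and 30.2%, and 37.4% lowered. Members lower for siY/T in DMSO were 2 with TMM scaling, edgeR or DESeq2 and 1 with quantile normalization. Of the 13515 genes tested, 666, 739, 771 and 789 were lower in these 4 settings, against 488 in the main fit. For siY/T with Sorafenib, members lower than in siCtrl cells were 1 with a pseudocount of 0.1, 2 with TMM, 3 with quantile normalization and 4 with edgeR or DESeq2. Of the 13515 genes, 641, 606, 655, 774 and 748 were lower in these settings, against 519 in the main fit. The 8 differences between siY/T and siCtrl effects became 5 in a fit of only the groups compared and 13 at an unadjusted P. Over all genes 1557 were lower and 652 higher in that fit, and 21.5% and 14.8% at an unadjusted P.

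Leaving out 1 library at a time gave 27 to 30 lowered members in siCtrl, 29 to 31 in siY/T and 1 to 1 in siATF4 cells with Sorafenib, 3 to 12 differences for siY/T, 38 to 41 for siATF4 against siCtrl and 39 to 41 against siY/T. The range was 0 to 1 lowered for siY/T in DMSO, 0 to 2 lowered and 0 to 1 raised for siY/T with Sorafenib, and 28 to 31 raised for siATF4 with Sorafenib. A group then held 1 library, which was assumed to vary like the others. The cause of these shifts was not tested.

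The labels do not say how same-numbered libraries were handled, and correlations of their deviations ran from -0.28 to 0.19. They were 0.04 to 0.19 between DMSO groups and 0.10 to 0.16 between Sorafenib groups. Between a DMSO and a Sorafenib group they were -0.28 to 0.005. A single block for the replicate number cannot hold a deviation that differs between treatments. With the replicate number as a block, 30, 31 and 1 members were lowered with Sorafenib in siCtrl, siY/T and siATF4 cells, and 8, 40 and 39 differences were called for siY/T against siCtrl, siATF4 against siCtrl and siATF4 against siY/T. Of the 13515 genes, 696, 560 and 399 were lowered with the block. The differences were lower for 1833, 2909 and 2041 genes and higher for 981, 2547 and 2462.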

Other observations

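ATF4 depletion in DMSO set G2/M genes apart from replication genes. All 13 G2/M genes were lower than in siCtrl cells at an adjusted P under 0.05, against 34.4% of all genes. By fold 9 of them were called, against 14.1%, and their median log2 fold change was -0.70. The 45 replication and nucleotide genes had a median of 0.02 with 1 called. The G2/M median was -0.70 with TMM scaling and -0.67 with quantile normalization. AURKA, a mitotic kinase, stood at -0.78.

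CDKN1A, which encodes the CDK inhibitor p21 and was picked once its values were known, was read at 15.6 and 15.2 CPM in siCtrl DMSO and 107 and 97.6 in siATF4 DMSO, a log2 fold change of 2.69. With Sorafenib it stood at 6.8 and 7.6 CPM in siCtrl and 37.2 and 39.6 in siATF4 cells. Its part in the values of the replication genes was not tested. CCND1, cyclin D1, was also higher in siATF4 cells, by 0.88 in DMSO and 2.07 with Sorafenib.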
